A study of Mus musculus with 6 samples.

Results

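The genes described here are 9 genes of nascent and paraxial mesoderm, chosen by name and found by symbol in the authors' deposited table of 36699 rows. They are Mesp1, Mesp2, Msgn1, Pcdh8, Cited1, Pdgfra, Meox1, Tcf15 and Foxc1. Each was matched by 1 row that names no other gene. RNA came from day 3 embryoid bodies, floating aggregates of differentiating mouse embryonic stem cells of the A2Lox.cre line, which carried a Flag-Lef1 transgene switched on by doxycycline (Dox). The plus_Dox group (3 libraries, numbered 1, 2 and 3) received Dox for the last 24 h before harvest, and the minus_Dox group (3 libraries, numbered 1, 3 and 4) carried the same transgene without Dox. Lef1 binds DNA and carries the Wnt signal together with beta-catenin, and the comparison addressed which genes respond when it is induced. The Dox dose and the cell type in which the transgene was switched on are not given in the sources used here. With no group that received Dox without the transgene, effects of Dox and of Lef1 cannot be told apart.

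Mesoderm forms when epiblast cells pass through the primitive streak, lose their epithelial order and spread between the germ layers. Wnt, Nodal and Fgf signals and the T-box factors Brachyury and Eomes drive this step in the mouse. Cells that leave the streak first switch on Mesp1. Those that stay beside the midline become presomitic mesoderm, where Msgn1 is active, then form segment boundaries with Mesp2 and Pcdh8, and become somites that express Meox1, Tcf15 and Foxc1. Several of these genes are also used elsewhere: Tcf15 in epiblast-stage cells, Pdgfra in primitive endoderm and fibroblasts.

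Promoter windows were read for the members because both Lef1 and Brachyury, whose gene T rose with Dox, bind short DNA motifs. RefSeq windows on build GRCm38.p6, from 250 bases before to 50 bases after a transcript start, were given for 7 of the 9 members. Meox1 and Tcf15 were not matched. The 4 shown are those of the 2 members that hold the Tcf/Lef core letters and of the 2 that passed the test described below. All 4 genes lie on the minus strand, and each sequence runs 5′ to 3′ along its gene. Capitals mark the Tcf/Lef letters CTTTGAA or CTTTGAT, the looser forms CTTTGTT or CTTTGTA, and the T-box letters TCACACC, each on either strand.
Mesp1 (chr7:79793541-79793840): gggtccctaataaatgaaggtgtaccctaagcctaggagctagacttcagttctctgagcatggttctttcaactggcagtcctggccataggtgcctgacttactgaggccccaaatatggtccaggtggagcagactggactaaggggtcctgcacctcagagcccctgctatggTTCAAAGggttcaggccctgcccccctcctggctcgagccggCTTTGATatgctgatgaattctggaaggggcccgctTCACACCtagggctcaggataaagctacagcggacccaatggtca
Msgn1 (chr12:11208899-11209198): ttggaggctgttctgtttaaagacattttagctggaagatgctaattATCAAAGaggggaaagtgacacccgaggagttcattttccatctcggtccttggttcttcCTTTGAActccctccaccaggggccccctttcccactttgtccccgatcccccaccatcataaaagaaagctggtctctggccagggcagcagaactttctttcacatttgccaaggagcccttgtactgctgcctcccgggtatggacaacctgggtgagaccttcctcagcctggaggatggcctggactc
Pcdh8 (chr14:79771263-79771562): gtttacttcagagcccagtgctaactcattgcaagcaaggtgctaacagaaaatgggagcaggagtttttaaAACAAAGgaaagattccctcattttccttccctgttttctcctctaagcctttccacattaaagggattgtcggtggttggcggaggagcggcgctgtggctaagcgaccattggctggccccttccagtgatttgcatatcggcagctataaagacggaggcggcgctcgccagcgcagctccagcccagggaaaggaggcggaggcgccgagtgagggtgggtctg
Cited1 (chrX:102252132-102252431): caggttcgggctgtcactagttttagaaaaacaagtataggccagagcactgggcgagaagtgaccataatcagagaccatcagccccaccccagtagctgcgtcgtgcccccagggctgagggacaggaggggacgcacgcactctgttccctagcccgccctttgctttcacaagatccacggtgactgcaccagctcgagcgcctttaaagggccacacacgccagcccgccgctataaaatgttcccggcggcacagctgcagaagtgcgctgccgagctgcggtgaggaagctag
Mesp1 held the Tcf/Lef letters 2 times, 73 and 31 bases before its start, and the T-box letters once, with their first base at position 6 after the start. Msgn1 held the Tcf/Lef letters 2 times, 203 and 143 bases before the start, each position being that of the first base. Of all 32851 RefSeq windows, 8.65% held CTTTGAA or CTTTGAT at least once, 0.508% held them 2 or more times, and 3.98% held TCACACC. Pcdh8 held only AACAAAG, the reverse complement of CTTTGTT, 178 bases before its start. With the looser forms included, 16.9% of all windows had a match. The letters of CTTTGTT also fit the core of Sox factor sites. None of these letters occurs in the windows of Cited1, all 3 of its annotated starts included, or in those of Mesp2, Pdgfra and Foxc1. A match describes the letters of a window and not a bound site.

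The authors' deposited table gives FPKM, sequenced fragments relative to transcript length and sequencing total, as 1 value for each group, so no value of a single library and no standard deviation (SD) can be shown. The spread between libraries enters only through the authors' own test. The standard error (SE) of a log2 fold used here is the one implied by the authors' statistic. Nothing in the labels ties the libraries to separate cultures, so this spread may be technical. The depth of the libraries is unknown. A gene passed the test at a q-value under 0.05, where q is the p-value adjusted over all 18114 tested rows. The level of the targeted gene matched the labels: Lef1 stood at 51.0 FPKM in plus_Dox and 7.56 FPKM in minus_Dox (6.75-fold with a log2 SE of 0.19, and a q of 0 as listed by the authors' deposited table). Epiblast and pluripotency markers were abundant and moved in both directions. The 9 readable genes of a list of 10 summed to 1832 FPKM in plus_Dox and 1114 FPKM in minus_Dox. Most of that sum was Pou5f1, at 1510 FPKM in plus_Dox and 820.2 FPKM in minus_Dox, which did not pass (q = 0.055 in the authors' deposited table). The median log2 fold of the 9 was -0.12, with 1 higher, 2 lower and 6 not passed. Over all tested rows 8.98% passed as higher and 3.22% as lower, with a median of 0.20. Under the median-ratio scaling described below, Fgf5 also passed as lower, for a split of 1 higher and 3 lower. With that scaling 3.47% of all rows with a finite fold passed as higher and 6.1% as lower. Nanog rose to 109.7 FPKM in plus_Dox, against 28.6 FPKM in minus_Dox. The row named Sox2 fell to 30.9 FPKM in plus_Dox, against 56.2 FPKM in minus_Dox, and Pou3f1 fell to 26.1 FPKM in plus_Dox, against 36.8 FPKM in minus_Dox. Nanog, Sox2 and Pou3f1 also passed after the trend removal described below. The Sox2 row spans 578182 bases, while the longest annotated Sox2 transcript has 2057 nt in 1 exon. Its value therefore cannot be credited to Sox2 alone, and its trend value used the properties of that transcript only.

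Pcdh8 and Cited1 rose with Dox, 2 of the 5 members that could be tested, where 8.98% of all tested rows passed as higher. Pcdh8, the adhesion molecule of paraxial mesoderm, was 2.75-fold higher but stayed under 1 FPKM in both groups. Cited1, a transcriptional cofactor of nascent mesoderm that binds CBP/p300, was abundant and 1.73-fold higher. Mesp2, Tcf15 and Pdgfra were tested and did not pass. Mesp1, Msgn1, Meox1 and Foxc1 stayed at trace levels that the authors did not test. Neither rise passed after a trend of the folds on transcript GC content and length was removed, as given below.

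**Figure D1:**
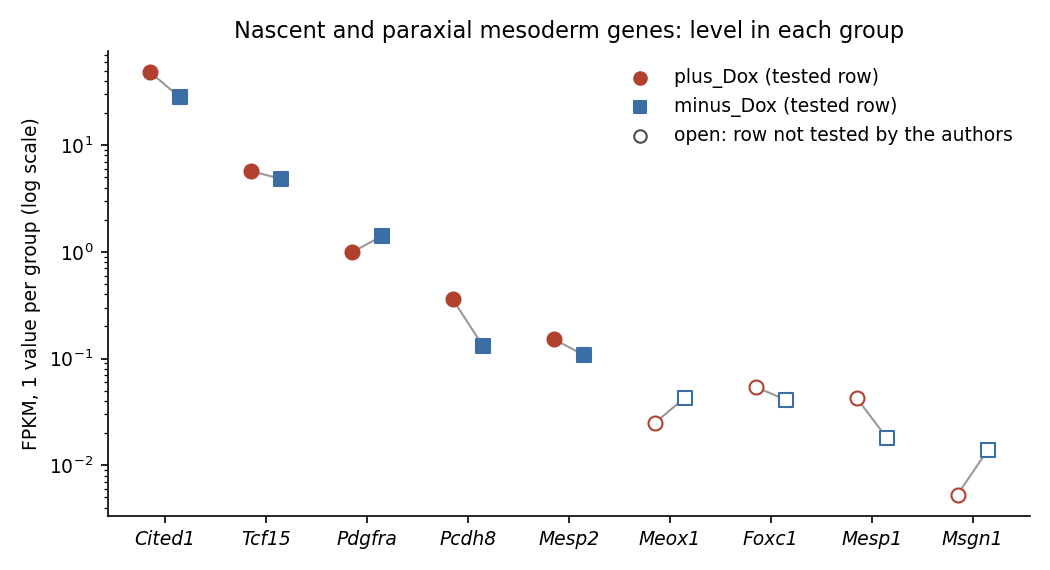
FPKM of the 9 members on a log axis, 1 value per group, with plus_Dox as circles and minus_Dox as squares and a line joining the 2 values of a gene. Cited1 stood highest in both groups, at 48.6 FPKM in plus_Dox and 28.0 FPKM in minus_Dox, and the 4 members drawn open were not tested by the authors.

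The levels of the members covered about 4 orders of magnitude in FPKM, a scale that already accounts for length. In plus_Dox the order from high to low was Cited1, Tcf15, Pdgfra, Pcdh8, Mesp2, Foxc1, Mesp1, Meox1 and Msgn1. In minus_Dox it was Cited1, Tcf15, Pdgfra, Pcdh8, Mesp2, Meox1, Foxc1, Mesp1 and Msgn1. The first 5 places and the last were the same in both groups. With 1 value per group, whether neighbours in this order differ beyond the spread between libraries cannot be said. Only Cited1, Tcf15 and Pdgfra reached 1 FPKM in at least 1 group, and 6 members were under it in both.

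Mesp1, the basic helix-loop-helix factor of the first mesoderm cells, was listed at 0.0428 FPKM in plus_Dox and 0.0181 FPKM in minus_Dox. Its row covers chromosome 7 from 86937126 to 86938674. All row positions are on mm9, which the submitters' processing notes name as the build. Msgn1, a helix-loop-helix factor of presomitic mesoderm, had 0.00533 FPKM in plus_Dox and 0.0139 FPKM in minus_Dox, the lowest level of the 9 members in either group (chromosome 12, 11215187 to 11215754). Both genes that hold Tcf/Lef letters 2 times in the windows printed above were thus barely detected in either group. No test exists for them, so a difference was not detectable at this level, which does not show that there was none. Foxc1, a forkhead factor of paraxial and other mesoderm, had 0.0543 FPKM in plus_Dox and 0.0410 FPKM in minus_Dox (chromosome 13, 31898514 to 31902504). Meox1, a homeobox factor of early somites, had 0.0249 FPKM in plus_Dox and 0.0430 FPKM in minus_Dox (chromosome 11, 101738823 to 101755688). Mesp1 and Foxc1 were the higher in plus_Dox and Msgn1 and Meox1 the lower, all on values far below 1 FPKM. A gene annotated antisense to Meox1, Gm11551, was listed at 0 FPKM in plus_Dox and 0.0264 FPKM in minus_Dox, and was not tested.

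Which members were tested followed from their level. All rows marked as not tested had under 0.075 FPKM in the higher group, the highest of them at 0.0722 FPKM, while 99.4% of the tested rows had 0.075 FPKM or more there. A row that is low in 1 group was therefore tested only if it was high in the other. This did not bear on the 5 tested members, each of which exceeded 0.075 FPKM in minus_Dox as well. It did bear on Myf5 and Pcdh17, described below.

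Pcdh8, also called paraxial protocadherin, works in the adhesion and separation of somite cells. It stood at 0.361 FPKM in plus_Dox and 0.131 FPKM in minus_Dox (chromosome 14, 80166586 to 80171119). In the authors' deposited table this is a log2 fold of 1.46 (SE 0.33, q = 0.00031), or 2.75-fold with a 95% interval of 1.77 to 4.28. A larger log2 fold was seen in 3.02% of the tested rows with a finite fold. Its level was low: 60.8% of rows tested or marked not tested lay below it in plus_Dox and 55.8% in minus_Dox. Of the 5590 tested rows under 1 FPKM in both groups, 1.93% passed as higher. GENCODE annotates an antisense gene, Gm9748, that overlaps Pcdh8 by 1405 bases, and no row carries its name. Whether the authors' counting used strand is not given, so reads of the pair cannot be told apart.

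Cited1, which lies on the X chromosome (99442719 to 99447520), has no DNA-binding domain of its own and acts through other factors. It stood at 48.6 FPKM in plus_Dox and 28.0 FPKM in minus_Dox, above 94.4% and 92.1% of the same rows. The authors' deposited table gives a log2 fold of 0.79 (SE 0.18, q = 0.00041), or 1.73-fold with a 95% interval of 1.36 to 2.21. In 11.7% of tested rows the log2 fold was larger. No other gene of the basic GENCODE set overlapped its GRCm38 span. Levels of bulk RNA do not tell more cells expressing a gene from more RNA per cell.

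Tcf15, also called paraxis, is needed in the mouse for somites to become epithelial. It stood at 5.73 FPKM in plus_Dox and 4.83 FPKM in minus_Dox (chromosome 2, 151969296 to 151974833). In the authors' deposited table its log2 fold was 0.25 (SE 0.23, q = 0.62), with a 95% interval of -0.21 to 0.70. The interval leaves room for a change between 0.866-fold and 1.63-fold. Mesp2, the factor that sets segment boundaries, stood at 0.152 FPKM in plus_Dox and 0.108 FPKM in minus_Dox (chromosome 7, 86955612 to 86958317). Its log2 fold in the authors' deposited table was 0.50 (SE 0.50, q = 0.65), with an interval of -0.48 to 1.47. This interval holds no change as well as a fold of the size seen for Pcdh8, 1.46 in log2. Mesp2 lies 16.9 kb from Mesp1, and neither reached 0.2 FPKM in any group.

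Pdgfra, the receptor tyrosine kinase for platelet-derived growth factors on early mesoderm, was the tested member with the lower value in plus_Dox, 0.988 FPKM against 1.41 FPKM in minus_Dox (chromosome 5, 75548315 to 75594229). The authors' deposited table gives a log2 fold of -0.51 (SE 0.22) with an unadjusted p of 0.018 and q = 0.11, which did not pass. Relative to 0.20, the median log2 fold of tested rows that reached 1 FPKM in either group, its log2 fold was -0.71 and passed (q = 0.015). Under that scaling 3.47% of the rows with a finite fold passed as higher and 6.1% as lower. An antisense gene, an unclassified transcript and a microRNA are annotated within Pdgfra, without rows of their own. Pdgfra is also known in primitive endoderm and fibroblasts, so markers of both were summed. The 11 readable endoderm markers of 12 summed to 211.8 FPKM in plus_Dox and 182.9 FPKM in minus_Dox, and the 12 fibroblast markers to 26.6 FPKM in plus_Dox and 20.2 FPKM in minus_Dox. Of the 11 endoderm markers, 7 were higher in plus_Dox. Among these were Ttr (48.6 FPKM in plus_Dox, 37.4 FPKM in minus_Dox) and Col4a1 (44.7 FPKM in plus_Dox, 36.9 FPKM in minus_Dox). The row named Ttr spans 116251 bases and that of Col4a1 261533 bases. Whether their values, and so the sum, belong to the named genes alone was not tested. The endoderm marker left out was Dab2, whose row is marked as failed. It was listed at 61.2 FPKM in plus_Dox and 78.8 FPKM in minus_Dox, the other direction from the sum. None of the summed genes was listed at 0 in both groups. The part of these markers in the level of Pdgfra was not tested.

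**Figure D2:**
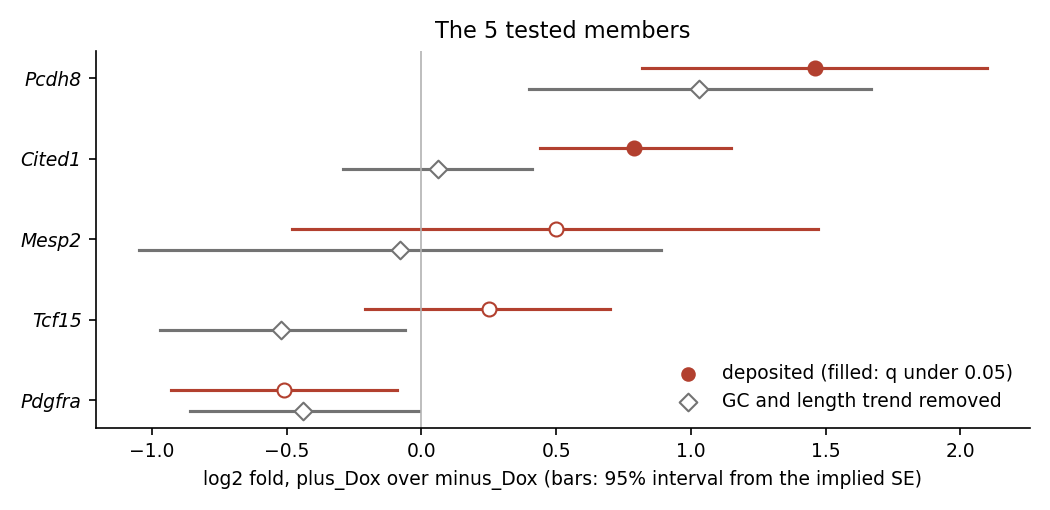
Log2 fold of plus_Dox over minus_Dox for the 5 tested members, with 95% intervals from the implied SE, as deposited (circles) and after removal of the trend on GC content and length (diamonds). Filled symbols passed a q-value under 0.05: Pcdh8 at 1.46 and Cited1 at 0.79 passed as deposited, and no member passed after the removal.

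Of the 5 tested members, 2 rose, none fell and 3 did not pass. Of all tested rows, 8.98% passed as higher, 3.22% as lower and 12.2% in either direction. At an unadjusted p under 0.05 the authors' Cuffdiff test gave 2 members higher and 1 lower. The share of all tested rows at an unadjusted p under 0.05 was not counted. Such counts, here, after trend removal and for the lists below, are therefore given without a share to compare them with. In 4 of the 5 the value was higher in plus_Dox, as in 65.1% of tested rows with a finite fold. The median log2 fold of the 5 was 0.50, beside 0.20 over those rows. These 5 are the members that reached the level of testing, not all 9, and the count is a description.

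**Figure D3:**
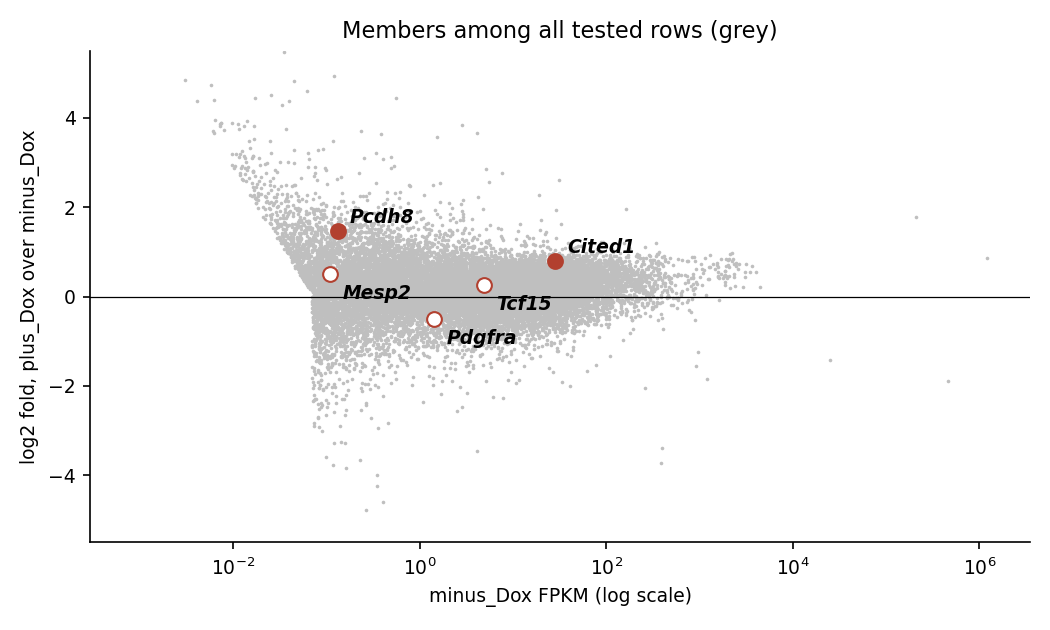
Log2 fold of plus_Dox over minus_Dox against the minus_Dox FPKM (log axis) for tested rows (grey, within a log2 fold of 5.5) and the 5 tested members, filled where they passed. Pcdh8 and Mesp2 lie at the low end, at 0.131 and 0.108 FPKM, and the empty corner at lower left is where both groups were too low to be tested.

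Fold changes in this table followed the composition of the transcripts, and 4 of the 5 tested members are GC-rich. Across 11596 rows, which share the same libraries, Spearman's coefficient of the log2 fold was 0.65 with GC content and -0.47 with length, as a description across genes. The median GC content was 50.3% over tested rows that reached 1 FPKM in either group. The longest GENCODE transcript of Tcf15 had 65.8% GC, that of Cited1 62.4%, Pcdh8 59.8%, Mesp2 58.2% and Pdgfra 48.1%. The first 4 are thus above the median and Pdgfra is below it. Lengths were 980 nt for Tcf15, 1090 nt for Cited1, 1944 nt for Mesp2, 4000 nt for Pcdh8 and 6834 nt for Pdgfra, against a median of 2912 nt. A smooth trend fitted on GC content and length gave, for transcripts of these properties, log2 folds of 0.73 for Cited1, 0.43 for Pcdh8, 0.76 for Tcf15, 0.58 for Mesp2 and -0.08 for Pdgfra. The deposited 0.79 of Cited1 lay close to its trend value, and 0.06 remained (q = 1.0, 95% interval -0.29 to 0.41). For Pcdh8 1.03 remained, with an interval of 0.40 to 1.67 and q = 0.061, outside the threshold. Tcf15 turned to -0.52 (interval -0.97 to -0.06, q = 0.41) and Mesp2 to -0.08. Pdgfra stood at -0.44 (q = 0.53). After the removal no member passed in either direction by the same normal test, with 1 higher and 2 lower at an unadjusted p under 0.05. Of the 16658 rows with both properties, 1.25% then passed as higher and 0.954% as lower.

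**Figure D4:**
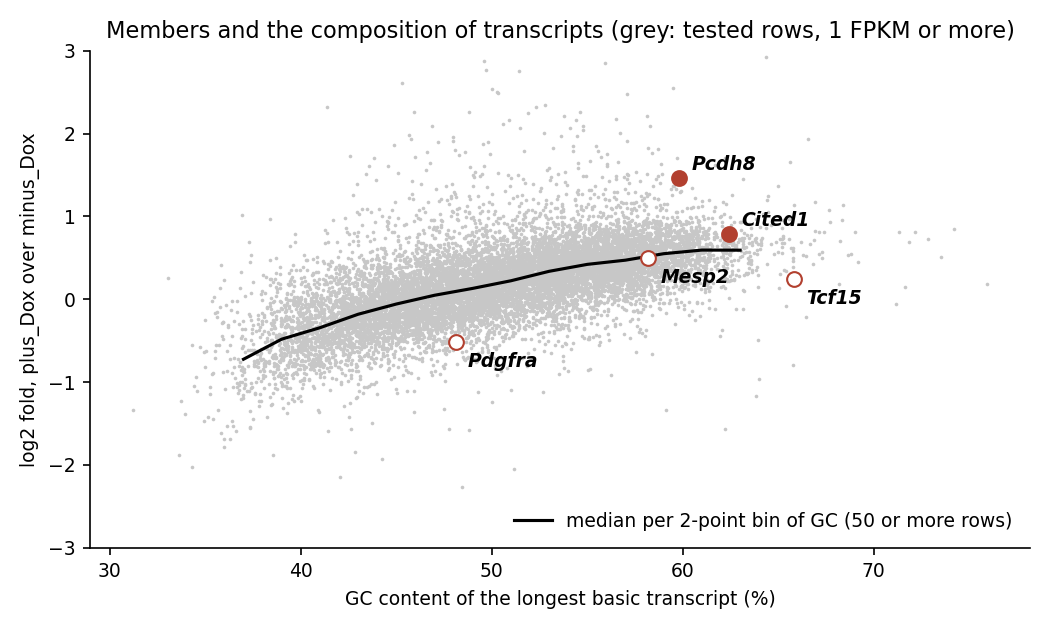
Log2 fold of plus_Dox over minus_Dox against GC content of the transcript for tested rows that reached 1 FPKM in either group (grey, within a log2 fold of 3), with their median per bin of GC (line) and the 5 tested members. Cited1, at 62.4% GC and a log2 fold of 0.79, lies near the line, and Pcdh8, at 59.8% GC and 1.46, lies above it.

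Other genes of early mesoderm were read from a list of 26. Of these, 24 had a row, 19 were tested, 5 rose, none fell and 14 did not pass, where 8.98% of all tested rows passed as higher and 3.22% as lower. At an unadjusted p under 0.05 the authors' Cuffdiff test gave 7 higher and 1 lower, a looser threshold for which the share of all tested rows was not counted. Fgf17, a growth factor of the streak, had 1.70 FPKM in plus_Dox and 0.593 FPKM in minus_Dox (log2 fold 1.51 with SE 0.28 and q = 6.5e-06, by the authors' deposited table). Nrarp, a feedback inhibitor of Notch signalling, had 3.00 FPKM in plus_Dox and 1.62 FPKM in minus_Dox (log2 fold 0.88 with SE 0.22 and q = 0.0016, by the authors' deposited table). Snai1, which represses E-cadherin as cells leave the streak, had 2.13 FPKM in plus_Dox and 1.11 FPKM in minus_Dox (log2 fold 0.94 with SE 0.26 and q = 0.0050, by the authors' deposited table). These 3 rises were of 1.85-fold to 2.86-fold. Cyp26a1, which breaks down retinoic acid, rose less, with a log2 fold of 0.45 (SE 0.16, q = 0.049 in the authors' deposited table). Myf5, a muscle determination factor, passed at 0.0767 FPKM in plus_Dox against 0.0124 FPKM in minus_Dox (in the authors' deposited table, log2 SE 0.94, q = 0.043), a row tested only because of its plus_Dox value. After trend removal Fgf17 alone passed as higher (0.92, q = 0.049).

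Among the segmentation and Notch genes of that list, a grouping made after their values were seen, Nrarp passed as given above, and Dll1, Dll3, Lfng, Hes7, Tbx6, Ripply1 and Ripply2 did not. Dll3 had 3.66 FPKM in plus_Dox and 2.61 FPKM in minus_Dox, and Lfng had 2.83 FPKM in plus_Dox and 2.70 FPKM in minus_Dox. Dll1, a Notch ligand, had 0.850 FPKM in plus_Dox and 0.992 FPKM in minus_Dox. Hes7, the oscillator of the segmentation clock, had 0.279 FPKM in plus_Dox and 0.201 FPKM in minus_Dox. Tbx6, a T-box factor upstream of Mesp2 and Msgn1 in the mouse, had 0.564 FPKM in plus_Dox and 0.316 FPKM in minus_Dox, a log2 fold of 0.83 with SE 0.39 and q = 0.16 in the authors' deposited table. Ripply1, which limits Mesp2 activity at segment borders, had 0.401 FPKM in plus_Dox and 0.795 FPKM in minus_Dox (log2 fold -0.99 with SE 0.46 and q = 0.16, by the authors' deposited table). Its value after trend removal was -1.66, which passed (q = 0.022). Ripply2 had 0.0872 FPKM in plus_Dox and 0.160 FPKM in minus_Dox. The whole list had a median log2 fold of 0.45 over its tested members, beside 0.20 for all tested rows. Of its genes with a row, 17 were under 1 FPKM in both groups.

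Streak genes that act upstream of the members rose. All 7 tested genes of a list of 8 rose, with a median log2 fold of 3.11, and all 7 passed after trend removal. Over all tested rows 8.98% passed as higher, with a median of 0.20, and after trend removal 1.25% passed as higher. The list was chosen with earlier results of these data known. Fgf8 had 51.7 FPKM in plus_Dox and 4.06 FPKM in minus_Dox, and T had 4.76 FPKM in plus_Dox and 0.381 FPKM in minus_Dox. Eomes, which directly activates Mesp1 in the mouse, had 18.9 FPKM in plus_Dox and 7.83 FPKM in minus_Dox. Nodal, whose signal starts streak formation, had 37.0 FPKM in plus_Dox and 5.14 FPKM in minus_Dox. Wnt3, the Wnt ligand needed for the streak in the mouse, had 2.16 FPKM in plus_Dox and 0.250 FPKM in minus_Dox. The homeobox genes Evx1 and Mixl1 stayed under 1 FPKM: Evx1 had 0.887 FPKM in plus_Dox and 0.0906 FPKM in minus_Dox, and Mixl1 had 0.886 FPKM in plus_Dox and 0.307 FPKM in minus_Dox. Wnt3a, the eighth gene, was not tested, at 0.0157 FPKM in plus_Dox and 0.00930 FPKM in minus_Dox. In plus_Dox, Fgf8, Nodal and Eomes thus stood above 10 FPKM, while Wnt3a, Mesp1 and Msgn1 were at trace levels. Whether the groups of genes differ in their response was not tested.

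**Figure D5:**
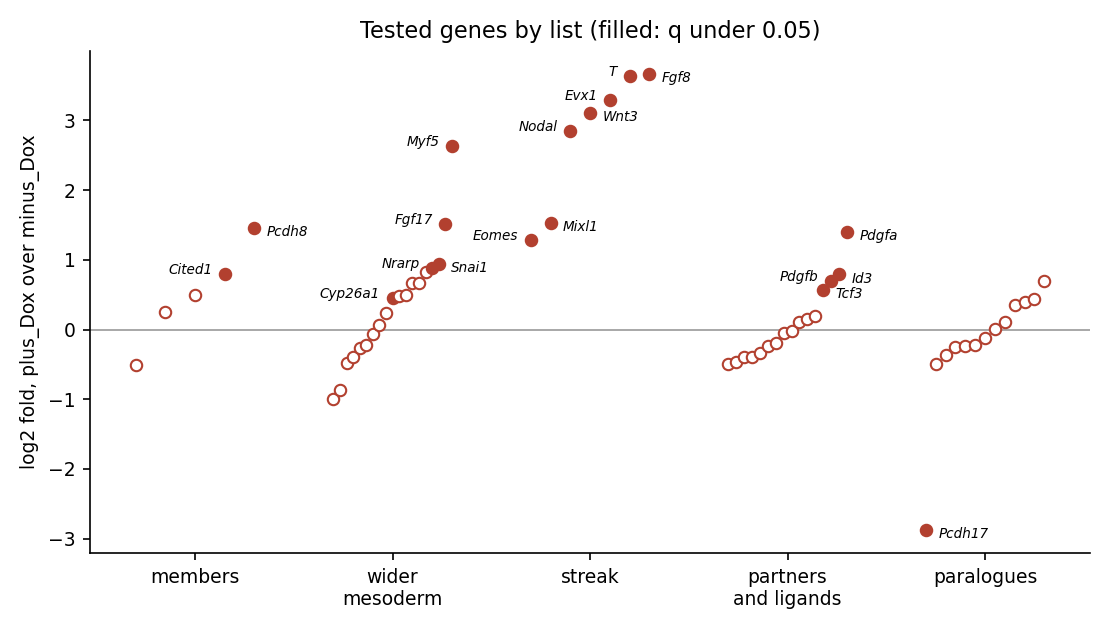
Log2 fold of plus_Dox over minus_Dox for each tested gene of 5 lists, sorted within a list, filled and named where q was under 0.05. The 7 streak genes passed with log2 folds between 1.28 and 3.67, and the members that passed were Cited1 at 0.79 and Pcdh8 at 1.46.

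Ligands and partners of the members were measured too. Of 16 tested genes, 4 rose, none fell (3 lower at an unadjusted p under 0.05 in the authors' Cuffdiff test) and 12 did not pass, with a median log2 fold of -0.04. Over all tested rows 8.98% passed as higher and 3.22% as lower, with a median of 0.20. Under median-ratio scaling, which takes off the 0.20 used for Pdgfra above, the split was 2 higher and 4 lower: Pdgfb (q = 0.13) and Tcf3 (q = 0.27) no longer passed, and Id2 (q = 0.0055), Ep300 (q = 0.017), Tcf12 (q = 0.047) and Crebbp (q = 0.048) passed as lower. With that scaling 3.47% of all rows with a finite fold passed as higher and 6.1% as lower. Pdgfa, a ligand of Pdgfra, rose to 5.84 FPKM in plus_Dox, against 2.22 FPKM in minus_Dox (log2 fold 1.40 with SE 0.30 and q = 0.00017, by the authors' deposited table), and passed after trend removal (1.04, q = 0.029). Pdgfb, another ligand gene of the family, had 3.46 FPKM in plus_Dox and 2.15 FPKM in minus_Dox (log2 fold 0.69 with SE 0.21 and q = 0.013, by the authors' deposited table). The ligand gene Pdgfa thus rose while the receptor gene Pdgfra did not pass. Tcf3, which encodes E proteins that pair with Mesp and Tcf15 factors, had 88.2 FPKM in plus_Dox and 59.4 FPKM in minus_Dox (log2 fold 0.57 with SE 0.19 and q = 0.032, by the authors' deposited table). Id3, an inhibitor of such pairs, had 105.2 FPKM in plus_Dox and 60.7 FPKM in minus_Dox (log2 fold 0.79 with SE 0.18 and q = 0.00059, by the authors' deposited table). After trend removal 0.05 remained for Tcf3, 0.21 for Id3 and 0.18 for Pdgfb, none of which passed.

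Paralogues of the members were read as well. Of 13 tested genes, none rose, also at an unadjusted p under 0.05 in the authors' Cuffdiff test (0 higher), and 1 fell, where 8.98% of all tested rows passed as higher and 3.22% as lower. Most paralogues were low: of the 15 with a row, 12 were under 1 FPKM in both groups. Of the 5590 tested rows at that level, 1.93% passed as higher, so few calls could be made here. Cited2, the paralogue of Cited1, had 20.4 FPKM in plus_Dox and 23.8 FPKM in minus_Dox, a log2 fold of -0.22 (SE 0.19, q = 0.57, by the authors' deposited table). With the trend removed it stood at -0.64 and passed as lower (q = 0.038). As deposited, the value of Cited2 was thus lower in plus_Dox than in minus_Dox, and that of Cited1 higher. After trend removal 0.06 remained for Cited1, which did not pass. The difference between the 2 genes was not itself tested. Pcdh17, a protocadherin of the family of Pcdh8, fell to 0.00998 FPKM in plus_Dox, against 0.0737 FPKM in minus_Dox (log2 fold -2.88 with SE 0.63 and q = 0.00025, by the authors' deposited table), a row tested only because of its minus_Dox value. Pcdh1, the most abundant protocadherin on the list, had 13.7 FPKM in plus_Dox and 16.3 FPKM in minus_Dox (in the authors' deposited table, q = 0.50).

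Of 8 tested markers of cardiac and lateral mesoderm, the other fates of Mesp1 cells, none passed in either direction. None had an unadjusted p under 0.05 in the authors' Cuffdiff test. Of the 11 with a row, 8 were under 1 FPKM in both groups and 3 were not tested. Nkx2-5 had 0.198 FPKM in plus_Dox and 0.143 FPKM in minus_Dox, and Kdr had 0.0752 FPKM in plus_Dox and 0.0992 FPKM in minus_Dox. The absence of calls at such levels does not show that these genes were unchanged. The 11 genes with a row summed to 25.5 FPKM in plus_Dox and 20.5 FPKM in minus_Dox. Most of that sum came from Gata4, at 12.9 FPKM in plus_Dox and 11.4 FPKM in minus_Dox, and Myl7, at 8.53 FPKM in plus_Dox and 6.37 FPKM in minus_Dox. Gata4 is also an endoderm gene and stands in that list as well. For each marker list, the share over all tested rows was 8.98% higher and 3.22% lower, with a median log2 fold of 0.20. Of the 11 tested endoderm markers 2 rose, none fell and 9 did not pass, with a median log2 fold of 0.18. Amn (43.8 FPKM in plus_Dox, 27.2 FPKM in minus_Dox) and Sox17 (3.91 FPKM in plus_Dox, 2.45 FPKM in minus_Dox) were those that rose. Gata6 had 3.17 FPKM in plus_Dox and 3.95 FPKM in minus_Dox, and Cubn had 28.4 FPKM in plus_Dox and 37.6 FPKM in minus_Dox. Under median-ratio scaling the endoderm split was 1 higher (Amn) and 1 lower (Cubn), where 3.47% of all rows passed as higher and 6.1% as lower. After trend removal it was 0 higher and 1 lower (Gata6 at -0.74, q = 0.019), where 1.25% of all rows passed as higher and 0.954% as lower. Of the 11 tested fibroblast markers 1 rose, none fell and 10 did not pass, with a median log2 fold of 0.36. Twist1, which is also a mesoderm gene, rose to 2.12 FPKM in plus_Dox, against 1.21 FPKM in minus_Dox. By the mean of the 2 groups, the most abundant 2 of that list were Thy1 and Dcn. Thy1 had 16.6 FPKM in plus_Dox and 11.9 FPKM in minus_Dox. Dcn had the lower value in plus_Dox, 1.52 FPKM against 2.12 FPKM in minus_Dox, and did not pass. Col1a2 had 1.95 FPKM in plus_Dox and 1.60 FPKM in minus_Dox. Lum was at a trace and not tested, at 0.0132 FPKM in plus_Dox and 0.0266 FPKM in minus_Dox. No fibroblast marker passed under median-ratio scaling or after trend removal. Their part in the values of Pcdh8 and Cited1 was not tested.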

How the data were processed

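RNA sequencing of polyadenylated RNA compared 3 plus_Dox with 3 minus_Dox libraries, grouped by sample titles. TopHat2 (2.0.8), Cufflinks (2.0.2), Cuffdiff, Bowtie, Picard and build mm9 are listed, without roles, in the submitters' processing notes. For the gene annotation, the source is not stated. The deposited table has Cuffdiff's column layout. Per the file headers it holds an FPKM value per gene and group, made by the authors over the libraries of a group. It also holds the authors' log2 fold of plus_Dox over minus_Dox, a test statistic (a score whose sign is opposite to the fold), a p-value and a q-value. There are 0 columns of single libraries, so no model was fitted to libraries, and the authors' test at q under 0.05 was used.

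From these values the SE (log2 fold over statistic, in size) and 95% intervals were computed with Python 3.11.15 and SciPy 1.17.1. A trend on GC content and log2 length (cubic splines, 6 knots each, scikit-learn 1.9.0) was fitted to tested rows with at least 1 FPKM. The properties came from GENCODE vM21 transcripts (GRCm38) and were known for 92.0% of tested rows. The trend was subtracted, and p-values were taken from the normal distribution with the same SE and adjusted over 16658 rows. On simulated folds for these 16658 genes, this step recovered 88.0% of changes of 1 and 100% of changes of 2 on the log2 scale. The changed genes were drawn only from rows with at least 1 FPKM and a small SE. The recovery therefore does not cover Pcdh8 and Mesp2, which were under 1 FPKM in both groups. Of the calls, 8.29% were of unchanged genes, above the nominal 5%, so calls close to the threshold after trend removal are less secure. Genes were named by a rule: every member, the list genes that passed, where fewer than 2 passed the most abundant 2 of a list, and marker genes near 0. Other genes that did not pass, and the neighbours of the members, were named after their values were seen. The members and lists were chosen with earlier results of these data known. In the list of 26, Foxc2 and Foxf1 are not analysed here.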

Additional observations from a re-analysis of the deposited data

How the results depend on the processing

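No paired analysis was possible because the table holds 1 value per group and none for single libraries, and leaving out a replicate could not be run for the same reason. With 2 members higher and 0 lower as reported, the count of members higher was 2 at q thresholds of 0.01 and 0.1 and under median-ratio scaling. It was 1 with a minimum of 2-fold (Pcdh8), 1 with at least 1 FPKM and 1 with at least 5 FPKM (Cited1 in both), and 0 after removal of the GC content and length trend. The count of members lower was 1 (Pdgfra) under median-ratio scaling, where the shift of 0.20 is taken off, and 0 under the other alternatives. Under this scaling Pcdh8 stood at 1.26 (q = 0.0027) and Cited1 at 0.59 (q = 0.015). For the list of 26 early mesoderm genes, the 5 higher became 3 at q 0.01, 2 with 2-fold, 1 with at least 5 FPKM, 3 under median-ratio scaling and 1 after trend removal, and the 0 lower became 1 (Ripply1) after trend removal. Of all rows, 3.47% passed as higher and 6.1% as lower under median-ratio scaling. After trend removal these shares were 1.25% and 0.954%. Among members that did not pass, Mesp2 turned to -0.08 and Tcf15 to -0.52 after trend removal. The minima on fold and level remove calls by construction, and the cause of the other changes was not tested. As differences of log2(FPKM + 1) Pcdh8 shrank to 0.27 and Cited1 stood at 0.77, and with a pseudocount of 0.1 they were 1.00 and 0.79. The unknown depth limits what can be said of the 4 members not tested.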

Other observations

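Genes that lie beside the members on the chromosomes were read after the members' values were seen. Within 250 kb of the 9 members, 38 other tested rows had a finite fold and reached 1 FPKM in at least 1 group. Of these, 6 rose, 1 fell and 31 did not pass, with a median log2 fold of 0.27. Over all tested rows 8.98% passed as higher and 3.22% as lower, with a median of 0.20. Those rows include 5590 under 1 FPKM in both groups, of which 1.93% passed as higher, so the 2 sets are unlike in level. Under median-ratio scaling 3 neighbours passed as higher and 2 as lower, where 3.47% and 6.1% of all rows did. After trend removal it was 2 as higher and 0 as lower, where 1.25% and 0.954% of all rows did. Beside Cited1 and Pcdh8, the members that rose, none of 3 and none of 4 neighbours passed as deposited. After trend removal Sugt1, 137 kb from Pcdh8, passed as higher (0.62, q = 0.0081), at 89.5 FPKM in plus_Dox and 78.8 FPKM in minus_Dox. Hdac8, the deacetylase gene next to Cited1, had 7.32 FPKM in plus_Dox and 6.28 FPKM in minus_Dox (log2 fold 0.22 with SE 0.20 and q = 0.59, by the authors' deposited table).

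As deposited, the calls near members lay beside Msgn1, Meox1, Foxc1 and Tcf15. Msgn1, Meox1 and Foxc1 were not tested and so could not be called, and Tcf15 was tested and did not pass. The call with the lowest q was Rpl27-ps2 near Meox1, by its name a pseudogene of Rpl27, whose reads and those of its parent gene cannot be told apart here. It had 19.8 FPKM in plus_Dox and 6.83 FPKM in minus_Dox (log2 fold 1.53 with SE 0.25 and q = 9.6e-08, by the authors' deposited table), and passed after trend removal (0.96, q = 0.0076). Also near Meox1, Etv4, an ETS factor gene induced by Fgf signalling, had 24.9 FPKM in plus_Dox and 13.3 FPKM in minus_Dox (log2 fold 0.91 with SE 0.25 and q = 0.0058, by the authors' deposited table). Near Foxc1, Foxq1, another forkhead gene, had 11.3 FPKM in plus_Dox and 6.37 FPKM in minus_Dox (log2 fold 0.82 with SE 0.18 and q = 0.00017, by the authors' deposited table). Foxc1 itself stayed at 0.0543 FPKM in plus_Dox and 0.0410 FPKM in minus_Dox. Near Tcf15, Trib3, a stress-induced pseudokinase gene, had 7.17 FPKM in plus_Dox and 3.91 FPKM in minus_Dox (log2 fold 0.88 with SE 0.20 and q = 0.00060, by the authors' deposited table). After trend removal Etv4 stood at 0.36, Foxq1 at 0.51 and Trib3 at 0.31, none of which passed.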
